A study of Rattus norvegicus with 4 samples.

Results

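The Toll-like receptor genes Tlr1, Tlr2, Tlr3, Tlr4, Tlr5, Tlr6, Tlr7, Tlr8 and Tlr9 were followed in RNA sequencing of 4 rat livers. They were picked by gene symbol, as a family chosen with earlier results of these data known. All 9 had 1 annotated row in each of the 4 libraries, among 16982 gene symbols present in every library. The values are TPM, a transcript level per gene length that is scaled within each library. The rats were wild-type male Wistar animals, bought at 6 weeks of age and housed for at least 1 further week, kept without food or water for 2 hours beforehand, and every animal inhaled an anesthetic through a nose cone in an oxygen-enriched gas stream. The group called sevoflurane 6 h received 4.5% sevoflurane for 6 hours, and the group called desflurane 6 h received 6% desflurane for 6 hours. The sevoflurane control and the desflurane control inhaled the same agent at the same concentration for less than 1 minute, so no animal was free of an anesthetic. RNA came from the left lateral lobe of the liver, with 1 rat and 1 library for each group. No p-value can therefore be given for any difference below, and the spread between animals of the same group is not known. Whole lobe RNA also carries a limit for genes of minority cells: fewer cells of a type and less RNA per cell cannot be told apart.

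Toll-like receptors are membrane proteins that recognize molecules of microbes and of damaged cells. Those at the cell surface bind bacterial products such as lipopeptides, lipopolysaccharide and flagellin, and those in endosomes bind nucleic acids. Most signal through the adaptor Myd88 to NF-kB, while Tlr3 signals through a separate adaptor toward interferon regulatory factors. In the liver, which receives blood from the gut, Kupffer cells (the resident macrophages) are a well known site of these receptors, and other liver cell types express some of them.

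A gene was called different when its TPM was above 2 in the higher of 2 libraries and the libraries were more than 2-fold apart. Against the control of the same agent, Tlr2 and Tlr7 were the members called, both lower after 6 hours of sevoflurane, and their promoters are shown for that reason. Each sequence is the 250 bases before the annotated start in the RefSeq table of assembly GRCr8, in which all 9 members were found. The Tlr2 window is chr2:171504558-171504807 on the minus strand and the Tlr7 window is chrX:30644176-30644425 on the plus strand. Capitals mark matches to the NF-kB letters, which are GGGA, any 4 bases and CC, searched on both strands.
Tlr2: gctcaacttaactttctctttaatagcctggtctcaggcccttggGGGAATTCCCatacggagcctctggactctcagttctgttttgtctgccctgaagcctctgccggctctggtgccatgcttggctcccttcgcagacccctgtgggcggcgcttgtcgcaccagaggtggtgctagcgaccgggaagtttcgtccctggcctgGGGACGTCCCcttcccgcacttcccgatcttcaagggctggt
Tlr7: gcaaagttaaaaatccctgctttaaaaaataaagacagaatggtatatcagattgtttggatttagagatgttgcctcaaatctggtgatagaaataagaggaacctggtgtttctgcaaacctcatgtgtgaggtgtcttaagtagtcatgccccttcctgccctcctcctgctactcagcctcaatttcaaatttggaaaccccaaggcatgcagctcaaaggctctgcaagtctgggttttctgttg
Tlr2 had 2 such matches, GGGAATTCCC at -205 to -196 and GGGACGTCCC at -42 to -33, counted back from -1 at the base before the start. These letters were in 16.4% of all 33469 promoter windows of that length and in 1 of the 9 members. The interferon response letters (GAAA, any 2 bases and GAAA), in 3.41% of all windows, and the PU.1 letters GAGGAAGT, in 2.04%, were in 0 of the 9. These are descriptions of letters and not of bound sites.

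Tlr3, the sensor of double-stranded RNA (chr16:50016857-50030314 in the rn6 annotation, plus strand), was by far the most abundant member, and the others were at or below 4.83 TPM in every library. Tlr3 was at 16.4 TPM in the sevoflurane control and 14.8 in the sevoflurane 6 h liver, with 15.5 in the desflurane control and 20.4 in the desflurane 6 h liver. These 4 levels spanned 1.37-fold, with the desflurane 6 h liver highest and the sevoflurane 6 h liver lowest. Tlr3 made up between 45.9% and 55.9% of the summed TPM of the 9 members. By mean TPM over the 4 libraries, Tlr3 (16.8) was followed by Tlr4 (3.52), Tlr7 (2.69), Tlr8 (2.68), Tlr1 (1.93), Tlr2 (1.79), Tlr6 (1.49), Tlr5 (0.622) and Tlr9 (0.589). The ranges of every pair of neighbours in that order overlapped except those of Tlr3 with Tlr4 and of Tlr6 with Tlr5. Of 3 further receptor genes in the files, Tlr12 had a mean of 0.744 TPM, Tlr11 of 0.482 and Tlr10 of 0.218.

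**Figure D1:**
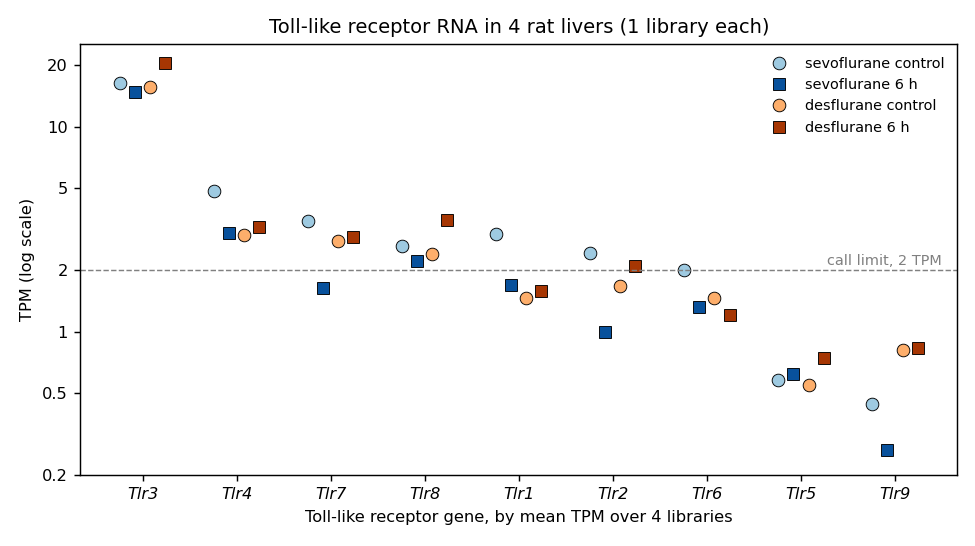
TPM (log scale) of each Toll-like receptor gene in the 4 libraries, with genes ordered by mean TPM, circles for controls and squares for 6 h of anesthesia. Each point is 1 library and there are no error bars. Tlr3 sits between 14.8 and 20.4 TPM, while Tlr2 and Tlr7 after 6 h of sevoflurane lie at 0.994 and 1.63 TPM, below the other 3 libraries.

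Among the surface receptors, Tlr2 showed the largest difference after sevoflurane. Tlr2, which pairs with Tlr1 or Tlr6 to bind bacterial lipopeptides, was at 2.41 TPM in the sevoflurane control and 0.994 in the sevoflurane 6 h liver. It was at 1.67 TPM in the desflurane control and 2.09 in the desflurane 6 h liver. The sevoflurane 6 h liver was thus the lowest of the 4, and Tlr2 was 2.43-fold lower there than in its control and called. Against the desflurane control the same library was 1.68-fold lower, which was not called. The Tlr2 exons had an average coverage of 4.33 in the sevoflurane control and 1.68 in the sevoflurane 6 h liver, so both TPM values rest on thin coverage.

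Tlr1 and Tlr6, the partners of Tlr2, had other profiles. Tlr1 was at 2.98 TPM in the sevoflurane control and 1.69 in the sevoflurane 6 h liver, with 1.45 in the desflurane control and 1.58 in the desflurane 6 h liver. The sevoflurane control alone stood high, and the other 3 livers were close together. Tlr6 was at 1.99 TPM in the sevoflurane control, just under the limit of 2, and at 1.31 after 6 hours of sevoflurane. It was at 1.46 TPM in the desflurane control and 1.20 in the desflurane 6 h liver. Both 6 h livers were below both controls for Tlr6, as they were for 13.3% of the genes with TPM above 0 in any library, and the gap between the nearest libraries was 1.11-fold. Tlr1 was 1.496 times Tlr6 in the sevoflurane control, and the ratio was 0.996 for the desflurane control. The pair are close paralogs and neighbours on chromosome 14 in rn6, Tlr6 at chr14:45024351-45040175 and Tlr1 at chr14:45062662-45065014. How reads shared between them were divided is not given in the sources used here.

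Tlr4, the receptor for lipopolysaccharide (chr5:82587424-82601056 in rn6, plus strand), was at 4.83 TPM in the sevoflurane control and 3.04 in the sevoflurane 6 h liver, with 2.95 in the desflurane control and 3.25 in the desflurane 6 h liver. As for Tlr1, the sevoflurane control was the high library and the other 3 were close together. Tlr4 was 1.59-fold lower after 6 hours of sevoflurane than in its own control but at 1.03 of the desflurane control, a value that turned below 1 under median-of-ratios scaling. Tlr5, the receptor for flagellin, was at 0.580 TPM in the sevoflurane control and 0.620 in the sevoflurane 6 h liver, with 0.548 in the desflurane control and 0.742 in the desflurane 6 h liver. Both 6 h livers were above both controls for Tlr5, an order found for 28.7% of the genes with TPM above 0. Coverage of Tlr5 was between 1.03 and 1.25, too low for these steps to be told from counting error.

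Among the endosomal receptors, Tlr7 was called after sevoflurane and its neighbour Tlr8 was not. Tlr7, a sensor of single-stranded RNA, was at 3.46 TPM in the sevoflurane control and 1.63 in the sevoflurane 6 h liver, with 2.76 in the desflurane control and 2.89 in the desflurane 6 h liver. The sevoflurane 6 h liver was again the lowest, by 2.12-fold against its own control and by 1.69-fold against the desflurane control. Tlr8, a related sensor encoded beside Tlr7 on chromosome X, was at 2.61 TPM in the sevoflurane control and 2.22 in the sevoflurane 6 h liver, with 2.39 in the desflurane control and 3.51 in the desflurane 6 h liver. For Tlr8 the desflurane 6 h liver stood apart on the high side, 1.47-fold above its own control. Tlr7 exceeded Tlr8 in both controls (ratios of 1.325 and 1.15) and was below it in both 6 h livers (0.737 after sevoflurane and 0.825 after desflurane). In the rn6 annotation Tlr7 spans chrX:28486929-28512201 and Tlr8 spans chrX:28539158-28562803, both on the plus strand.

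Tlr9, the sensor of unmethylated CpG DNA, was low in every liver and had the widest relative range. It was at 0.445 TPM in the sevoflurane control and 0.264 in the sevoflurane 6 h liver, with 0.813 in the desflurane control and 0.835 in the desflurane 6 h liver. The control and the 6 h liver of desflurane were both above the control and the 6 h liver of sevoflurane. The sevoflurane 6 h liver was 3.08-fold below the desflurane control, but no library reached 2 TPM, so Tlr9 could not be called. The coverage of 0.446 in the sevoflurane 6 h liver equals at most 17.9 reads of full length over the whole row.

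Summed by location, the surface receptors (Tlr1, Tlr2, Tlr4, Tlr5 and Tlr6) came to 12.8 TPM in the sevoflurane control and 7.66 in the sevoflurane 6 h liver, with 8.08 in the desflurane control and 8.87 in the desflurane 6 h liver. The sevoflurane control was the high library and the other 3 were near each other, so the ratio to the own control after sevoflurane was 0.598 while that to the desflurane control was 0.947. The endosomal receptors without Tlr3 came to 6.51, 4.12, 5.95 and 7.23 TPM in the same order. For them the sevoflurane 6 h liver was the low library, at 0.632 of its own control and 0.692 of the desflurane control. The sevoflurane control held the highest level of 5 members (Tlr1, Tlr2, Tlr4, Tlr6 and Tlr7) and the desflurane 6 h liver that of the other 4. Over all genes with TPM above 0, the sevoflurane control was highest for 18.8% and the desflurane 6 h liver for 36.7%. The sevoflurane 6 h liver held the lowest level of 5 members (Tlr2, Tlr3, Tlr7, Tlr8 and Tlr9), where it was lowest for 27.7% of all genes.

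With sevoflurane, 8 of the 9 members were lower than in the control of the same agent and Tlr5 was higher. Of all 16982 genes, 6190 were lower, 7479 higher and 3313 equal. Of the 9136 genes above 2 TPM in all 4 libraries, 3923 were lower. Among the members, that smaller set holds only Tlr3, Tlr4 and Tlr8. Tlr2 and Tlr7 were called lower out of 6 members above 2 TPM in that control, whereas 3.38% of all genes above 2 TPM there were called lower. Tlr1 was next, 1.77-fold lower and so just outside the limit. No member was called higher, where 2.3% of all genes above 2 TPM after 6 hours of sevoflurane were. The summed TPM of the 8 members without Tlr3 was 19.3 in the sevoflurane control and 11.8 after 6 hours, a ratio of 0.610. The median log2 change of the 9 members, with 1 TPM added, was -0.37. That of the 9136 genes above 2 TPM in all 4 libraries was 0.05, and that of all 16982 genes was 0.

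With desflurane, no member was called against its own control in either direction, where 1.53% of all genes were called lower and 2.84% higher. Before any rescaling 8 of the 9 were higher and Tlr6 was lower, where 6125 of the 9136 genes were higher. Of all 16982 genes, 8745 were higher, 5082 lower and 3155 equal. Under median-of-ratios scaling Tlr1, Tlr7 and Tlr9 turned lower, and Tlr7 and Tlr9 did so with FPKM. Median-of-ratios scaling moved the median log2 change of the 9136 genes, with 1 TPM added, from 0.11 to -0.01. The ratios to the desflurane control ran from 0.822 for Tlr6 to 1.47 for Tlr8, with 1.25 for Tlr2 and 1.05 for Tlr7. The 8 members without Tlr3 summed to 14.0 TPM in the desflurane control and 16.1 after 6 hours. The median log2 change of the 9 members with 1 TPM added was 0.11, beside 0.11 for the 9136 genes and 0.01 for all 16982 genes.

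The choice of control moved most of these values, because the controls differed from each other. The desflurane control was below the sevoflurane control for 8 members, and the exception was Tlr9, 1.83-fold higher. Of the 9136 genes above 2 TPM in all 4 libraries, 5054 were lower in the desflurane control. Of all 16982 genes, 7156 were lower there, 6572 higher and 3254 equal. Tlr1 was 2.05-fold lower and called, where 1.2% of all genes were called lower and 1.19% higher. Without Tlr3 the members summed to 0.727 of the level in the sevoflurane control. That difference between animals with less than 1 minute of anesthesia is the only view these libraries give of variation between livers, and it includes the agent. It was smaller than the sevoflurane difference for Tlr2 (ratio of 0.694 against 0.412) and Tlr7 (0.797 against 0.473). It was as large or larger for Tlr1 (0.487 against 0.565) and Tlr4 (0.611 against 0.630).

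Against the control of the other agent, no member was called. After 6 hours of sevoflurane, Tlr2 and Tlr7 were at 0.594 and 0.593 of the desflurane control and Tlr9 at 0.324, while the remaining members were between 0.901 and 1.16. In that comparison 2.64% of all genes were called lower and 2.6% higher. After 6 hours of desflurane, 5 members were below the sevoflurane control, from 0.530 for Tlr1 to 0.868 for Tlr2, and Tlr3, Tlr5, Tlr8 and Tlr9 were above it. There 1.64% of all genes were called lower and 2.89% higher. With the 6 h livers set side by side, Tlr2 was 2.11-fold higher after desflurane than after sevoflurane and called, where 2.8% of all genes were called higher and 1.21% lower. That Tlr2 call was lost under median-of-ratios scaling and with FPKM.

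**Figure D2:**
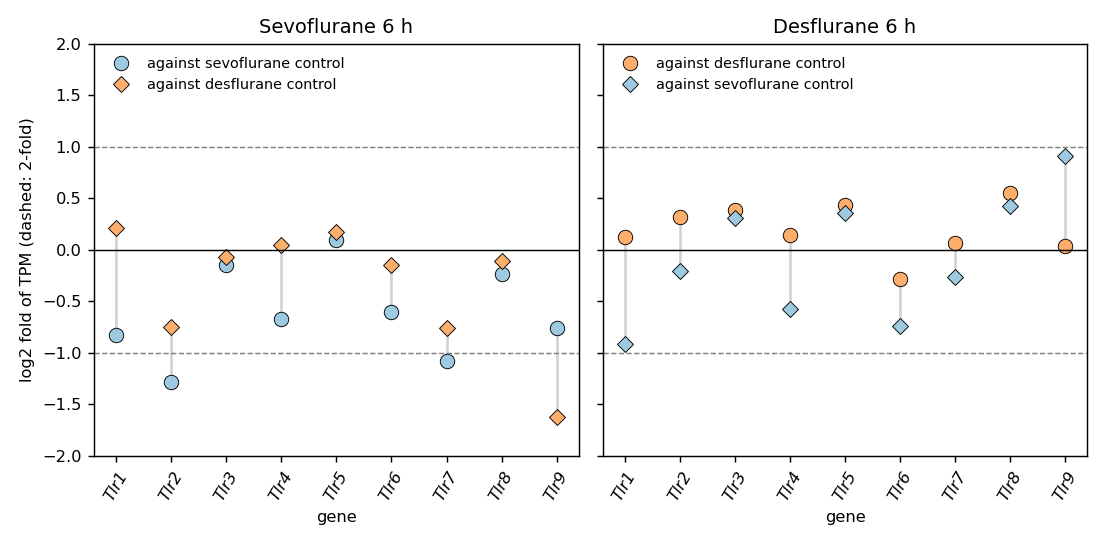
Log2 fold of TPM for each of the 9 genes after 6 h of sevoflurane (left) and 6 h of desflurane (right), against the control of the same agent (circles) and of the other agent (diamonds). Each point compares 1 library with 1 library. Tlr2 and Tlr7 are below 0 with sevoflurane against either control, while Tlr1 with sevoflurane changes side with the control used.

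The Kupffer cell markers, like the 8 receptors without Tlr3, were highest in the sevoflurane control and lowest in the sevoflurane 6 h liver. The 11 Kupffer cell and macrophage genes found in the files, led by C1qc and Clec4f, summed to 809 TPM in the sevoflurane control and 485 in the sevoflurane 6 h liver, with 641 in the desflurane control and 757 in the desflurane 6 h liver. All 11 were lower after sevoflurane than in its control, 4 of them were called beside 3.38% of all genes, and none was at 0 in any library. The 8 leukocyte genes summed to 122, 71.2, 97.1 and 93.2 TPM in the same order, with Itgb2 and Laptm5 highest. That list was slightly lower in the desflurane 6 h liver than in the desflurane control, where the 8 receptors were higher. The 8 receptors without Tlr3 came to 23.9 TPM per 1000 TPM of the Kupffer markers in the sevoflurane control and 24.3 in the sevoflurane 6 h liver, with 21.9 in the desflurane control and 21.3 in the desflurane 6 h liver. Per 1000 TPM of the leukocyte genes the same receptors came to 158, 165, 145 and 173 TPM in that order. Both quotients varied less than the summed receptor level itself, so this was not particular to the Kupffer markers. The part of these cells in the receptor values was not tested.

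Single members did not all keep a constant level per Kupffer marker. After 6 hours of sevoflurane the quotient was 0.688 of that in its control for Tlr2 and 0.789 for Tlr7. In that comparison it was close to 1 for Tlr1 (0.944), Tlr4 (1.05), Tlr6 (1.0997) and Tlr9 (0.989), and above 1 for Tlr3 (1.51), Tlr5 (1.78) and Tlr8 (1.42). Against the desflurane control the same library gave 1.54 for Tlr1, 1.36 for Tlr4, 1.19 for Tlr6 and 0.429 for Tlr9. Tlr2 was at 0.785 and Tlr7 at 0.784 there. With desflurane against its own control the ratios were 0.922 for Tlr1, 0.933 for Tlr4, 0.696 for Tlr6 and 0.870 for Tlr9. The TPM of Tlr3 itself was at 0.903 of its control after sevoflurane and 1.31 after desflurane. Per endothelial marker the quotient of Tlr3 was at 0.939 and 1.16 in that order, and per Kupffer marker at 1.51 and 1.11. The 6 endothelial genes, led by Fcgr2b and Kdr, summed to between 260 and 294 TPM. The 8 hepatocyte genes, with Alb at 77519 to 92912 TPM and Tf next, summed to 143811 TPM in the sevoflurane control and 136726 in the sevoflurane 6 h liver.

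Lymphocyte genes were much lower in level. T and NK cell genes, with Gzma and Prf1 highest, summed to 18.9 TPM in the sevoflurane control and 6.87 in the sevoflurane 6 h liver, with 12.1 in the desflurane control and 12.1 in the desflurane 6 h liver. B cell genes, with Cd22 and Fcrla highest, summed to 15.4, 7.52, 11.5 and 12.4 TPM in that order. Both lists were lowest in the sevoflurane 6 h liver, as Tlr2, Tlr3, Tlr7, Tlr8 and Tlr9 were. Monocyte and dendritic cell genes (Bst2 and Lyz2 highest) summed to 218, 177, 234 and 178 TPM. Neutrophil genes (S100a9 and S100a8 highest) summed to 3.21, 2.97, 4.83 and 1.74 TPM, with 2 or 3 of 8 at 0 in each library. Both of these sums were highest in the desflurane control and lower in the desflurane 6 h liver, unlike the sum of the 8 receptors. Bst2, at 155, 141, 189 and 150 TPM, made up most of the monocyte and dendritic cell sum. Of the 9 genes in that list, 7 were lower in the desflurane control than in the sevoflurane control. Stellate cell and fibroblast genes (Col3a1 and Lrat highest) ranged from 279 to 310 TPM, and bile duct genes (Epcam and Spp1 highest) from 14.5 to 21.3 TPM.

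**Figure D3:**
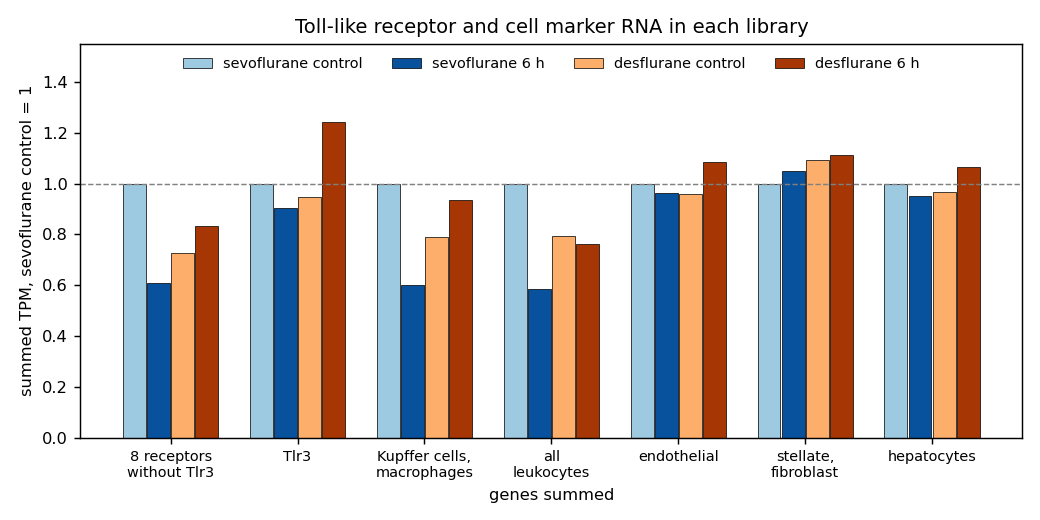
Summed TPM in each library relative to the sevoflurane control (set to 1) for the 8 receptor genes without Tlr3, for Tlr3 and for 5 lists of cell markers, as bars from 0 with 1 library each. The 8 receptors, the Kupffer cell list and the leukocyte list are lowest after 6 h of sevoflurane, with the 8 receptors at 0.610, while the endothelial and hepatocyte bars stay near 1.

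The genes that act with the receptors were described by role. Against the own control, 3.38% of all genes above 2 TPM were called lower and 2.3% higher with sevoflurane, and 1.53% lower and 2.84% higher with desflurane, and the counts below are read beside these shares. Among 8 co-receptors and carriers, Lbp and Cd14, which bring lipopolysaccharide to Tlr4, were the most abundant and were not called. Lbp was at 81.9 TPM in the sevoflurane control and 83.3 in the sevoflurane 6 h liver, with 80.4 in the desflurane control and 83.6 in the desflurane 6 h liver. Cd14 was at 47.1, 58.1, 34.4 and 45.4 TPM in the same order. Thus Cd14 was 1.23-fold higher after sevoflurane where Tlr4 was lower. The 2 genes called in this list were Cd180, a Toll-like receptor homologue, and Ly86, which encodes its partner MD-1. Cd180 was at 8.06, 1.89, 3.92 and 2.31 TPM and Ly86 at 17.2, 4.87, 11.3 and 6.60 TPM in that order. Both were lower in each 6 h liver than in either control, as were 13.3% of the genes with TPM above 0 in any library. Both were called after sevoflurane against either control, and after desflurane against the sevoflurane control only. Between the controls Cd180 was called as well, with the desflurane control at 0.486 of the sevoflurane control.

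Of 13 genes for trafficking and processing of Toll-like receptors, none was called with either agent against its own control, a count near those shares. The proteases Ctsl and Ctsb were the most abundant, at 485 to 878 TPM and 355 to 410 TPM. Unc93b1, the chaperone that carries endosomal receptors out of the endoplasmic reticulum, and the protease Ctss were looked at after their values were seen. Unc93b1 was at 19.1 TPM in the sevoflurane control and 10.6 in the sevoflurane 6 h liver, with 13.5 in the desflurane control and 19.3 in the desflurane 6 h liver. Ctss was at 98.4, 52.7, 68.1 and 94.5 TPM in that order. Both were lowest after 6 hours of sevoflurane, as Tlr7 was, and neither reached a 2-fold difference from its control there.

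Of 21 adaptors and kinases, 1 was called after sevoflurane and 0 after desflurane, near the shares of all genes. Irak1 was at 65.3 to 78.6 TPM and Pik3ap1 at 34.6 to 53.0 TPM. The gene called was Sarm1, an adaptor known to restrain Toll-like receptor signaling, which was at 1.21 TPM in the sevoflurane control and 3.29 in the sevoflurane 6 h liver, with 1.99 in the desflurane control and 1.13 in the desflurane 6 h liver. Of 14 inhibitors, 12 were above 2 TPM in either library with each agent, and 1 was called with each agent. Tank was called lower after sevoflurane, at 10.3, 4.62, 7.63 and 11.1 TPM in that order. Dusp1, a phosphatase acting on MAP kinases, was called lower after desflurane, at 52.7, 58.4, 127 and 22.4 TPM. The high Dusp1 value was that of the desflurane control. Nfkbia, the inhibitor of NF-kB that NF-kB itself induces, was at 52.5 and 42.4 TPM in the 6 h livers and was not called. Both values were above those of the controls (32.6 and 26.5 TPM), an order found for 28.7% of the genes with TPM above 0.

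Among 10 transcription factors, Irf1 was called lower with both agents and Irf7 with sevoflurane. Irf1, an interferon-induced factor, was at 23.8 TPM in the sevoflurane control and 4.71 in the sevoflurane 6 h liver, with 19.1 in the desflurane control and 8.65 in the desflurane 6 h liver. Irf7, which acts downstream of Tlr7 and Tlr9 in interferon induction, was at 35.4, 16.0, 21.3 and 15.5 TPM in that order. Against the desflurane control, Irf1 was still called lower after sevoflurane and Irf7 was not. Irf3 (50.7 to 65.6 TPM) and the NF-kB subunit Rela (32.1 to 36.8 TPM) were the most abundant and were not called. Of 21 target genes, 9 were above 2 TPM in either library of the sevoflurane comparison and 8 in that of desflurane. Of those 9, 4 chemokine genes were called lower after sevoflurane, beside 3.38% of all genes above 2 TPM. Of those 8, 1, Il1b, was called higher after desflurane, beside 2.84% of all genes above 2 TPM. Cxcl10 was at 12.2, 2.02, 7.09 and 4.25 TPM and Cxcl1 at 6.77, 1.02, 3.40 and 2.97 TPM. Ccl4 was at 3.95, 0.818, 2.14 and 2.07 TPM and Ccl3 at 3.13, 0.941, 1.40 and 0.952 TPM. Cxcl10, Cxcl1 and Ccl4 were called after sevoflurane against the desflurane control too. Ccl3 was not, and it was called lower in the desflurane control than in the sevoflurane control.

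Il1b, encoding a cytokine, was at 4.50 TPM in the sevoflurane control and 2.34 in the sevoflurane 6 h liver, with 2.26 in the desflurane control and 4.71 in the desflurane 6 h liver. The desflurane 6 h liver was thus close to the sevoflurane control, and the call was lost under median-of-ratios scaling and with FPKM. The adhesion molecule gene Icam1 (22.5 to 34.4 TPM) and Ccl5 (9.02 to 11.5 TPM) were the most abundant targets and were not called. Of 11 sensors outside the family, 8 were above 2 TPM in either library of the sevoflurane comparison. Among these 1 was called, beside the 3.38% of all genes above 2 TPM called lower. It was Zbp1, a sensor of nucleic acids, lower after sevoflurane, at 2.37, 0.786, 1.19 and 1.13 TPM. The RNA sensors Ddx58 (23.8 to 37.8 TPM) and Ifih1 (18.1 to 27.5 TPM) were not called. In TPM, a level per length, Tlr3 was below both in every liver except for Ifih1 in the desflurane 6 h liver (20.3 beside 20.4 for Tlr3).

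**Figure D4:**
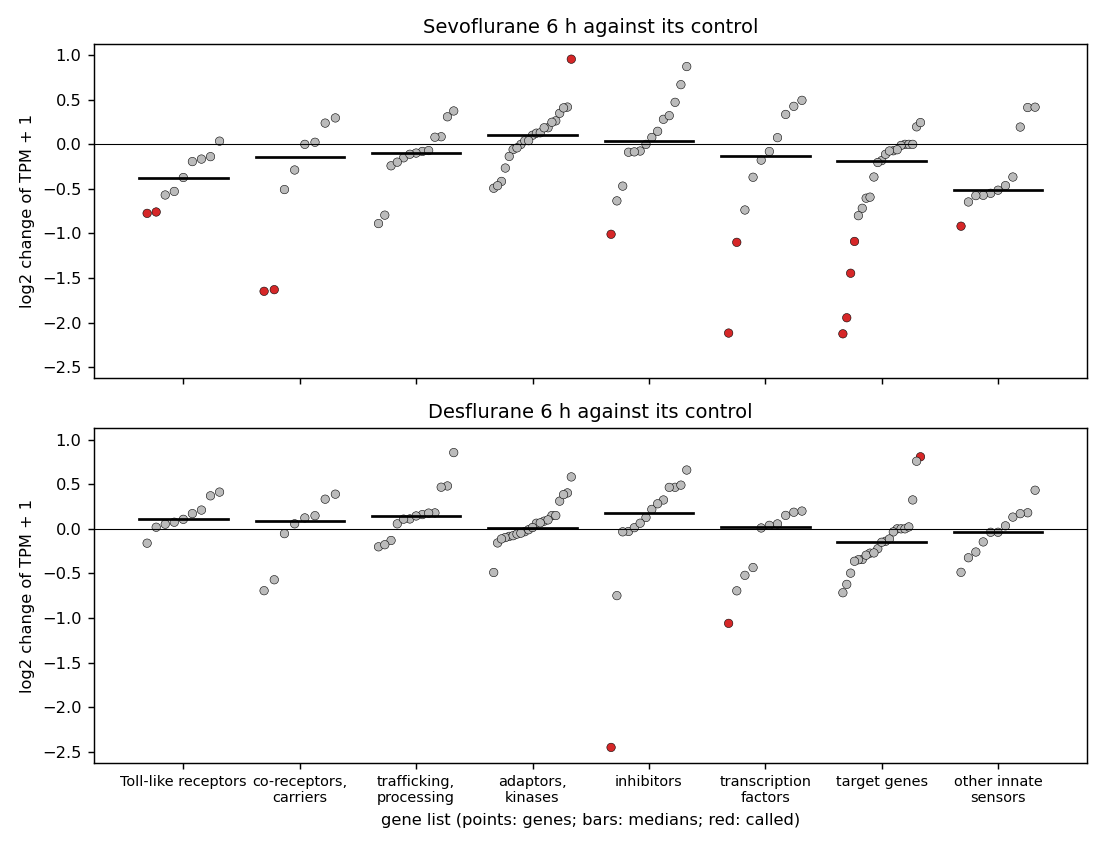
Log2 change of TPM with 1 TPM added, after 6 h of sevoflurane (top) and of desflurane (bottom) against the control of the same agent, for the 9 receptors and 7 lists of pathway genes. Points are genes, red points were called by the limits of 2 TPM and 2-fold without the added TPM, and bars are medians. With sevoflurane the receptor median is -0.37 and with desflurane 0.11.

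Genes with a profile like that of a member were sought for the 4 members with a mean above 2 TPM. Likeness was the distance between the log2 TPM values in the 4 libraries after the mean of each gene was subtracted, over 9133 genes above 2 TPM in every library. With only 4 libraries it is given as a description. Nearest to Tlr7 were the macrophage surface gene Adgre1 at 0.07, Fzd5 at 0.08 and C1s at 0.09, where the median gene was at 0.89. Adgre1 was at 16.1 TPM in the sevoflurane control and 7.29 in the sevoflurane 6 h liver, with 13.1 in the desflurane control and 13.6 in the desflurane 6 h liver. As for Tlr7, the sevoflurane 6 h liver alone was low.

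Nearest to Tlr4 were Dhx58, encoding an RNA helicase of the interferon response, at 0.09, Plac8 at 0.09 and Tmco4 at 0.15 (median gene 0.68). Dhx58 was at 9.97, 6.68, 6.33 and 7.30 TPM in the order used above, so it shared the high sevoflurane control. Nearest to Tlr3 were Oit3 at 0.03, Sc5d, an enzyme of cholesterol synthesis, at 0.03 and Map4k5 at 0.04 (median gene 0.43). Nearest to Tlr8 were Tcp11l2 at 0.01, Ift81 at 0.06 and Mcart1 at 0.07 (median gene 0.54). Tcp11l2 was at 22.7, 19.5, 20.9 and 30.9 TPM, with the desflurane 6 h liver high as for Tlr8. None of the genes nearest to Tlr3, Tlr4 or Tlr8 was on the Kupffer cell list. That list holds 11 genes, beside 9133 compared, so this absence says little about any of these receptors.

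Depth was alike across the 4 libraries. The ratio of FPKM to coverage corresponded to 4.47 to 5.40 Gb of aligned sequence per library, and between 9474 and 9695 genes were above 2 TPM. Tlr3 had an average coverage of 25.1 to 34.3 and every other member 0.446 to 8.68, so the level of Tlr3 is the best measured of the 9.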

How the data were processed

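Liver RNA of 4 rats (1 library per group, groups taken from the labels) was depleted of ribosomal RNA and sequenced as paired 101-base reads. The authors trimmed reads with sickle 1.33 (quality 30, length 20), used HISAT2 2.1.0 for alignment to rn6, SAMtools 1.10 for sorting and StringTie 2.1.2 with the refGene annotation for quantification. The deposited tables give average coverage (a signal that is not scaled for depth) and FPKM scaled by the authors' StringTie run. The TPM values the authors deposited are a signal on which the annotated rows sum to between 779824 and 813454, because rows assembled by StringTie carry the full total. Library depth was derived here from FPKM and coverage. No read counts are given in the files used here.

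Annotated rows longer than 200 bases were kept and TPM was summed per symbol. The call limits (TPM above 2 in the higher library, more than 2-fold, no pseudocount) follow the study's methods. List medians used log2(TPM + 1) unless stated otherwise. No test was made with 1 library per group. All 9 receptors are named. From each pathway list the 2 genes with the highest mean TPM and every gene called against its own control are named, from each cell marker list the 2 highest, and for each receptor with a mean above 2 TPM its 3 nearest genes. Unc93b1 and Ctss fall outside this rule. The receptors and the gene lists were chosen with earlier results of these data known. Symbols absent from the annotation used (such as Tlr13, Tirap, Ticam1 and Tnfaip3) were not analysed here. Alternatives were other limits, scalings, pseudocounts, controls and use of the assembled rows. The calling code was checked on simulated tables. Python 3.11.15, pandas 2.3.3 and numpy 2.4.6 were used.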

Additional observations from a re-analysis of the deposited data

Results flagged for a closer look

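For 7 of the 9 receptors the 2 agents went opposite ways against their own controls, lower after 6 hours of sevoflurane and higher after 6 hours of desflurane. Of all 16982 genes, 6190 were lower with sevoflurane and 8745 were higher with desflurane. Of the 9136 genes above 2 TPM in all 4 libraries, 3923 were lower with sevoflurane and 6125 were higher with desflurane. How many genes did both was not counted, so these counts cannot show whether 7 of 9 is unusual. The log2 change with desflurane minus that with sevoflurane was 0.95 for Tlr1, 1.601 for Tlr2, 0.54 for Tlr3, 0.81 for Tlr4, 1.15 for Tlr7, 0.79 for Tlr8 and 0.79 for Tlr9. The difference was not tested, since each group has 1 library. Each value also contains the difference between the controls, which were lower with desflurane than with sevoflurane for all of these receptors except Tlr9. Under median-of-ratios scaling Tlr1, Tlr7 and Tlr9 were lower with both agents.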

How the results depend on the processing

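Against the sevoflurane control, 2 receptors (Tlr2 and Tlr7) were called lower after sevoflurane. They were the same with a TPM limit of 1, with no TPM limit and with median-of-ratios scaling. A single row per symbol and no length filter were also run, but these settings could not change any receptor call. Each receptor has 1 annotated row in each library, and that row passes the length filter. The count of receptors called lower was 4 with a fold limit of 1.5 (Tlr1 and Tlr4 added) and 0 with a pseudocount of 1 TPM. It was 0 with FPKM, where both genes are under the limit of 2 in every library. Against the mean of the 2 controls, an alternative added after seeing the data, the count was 1 (Tlr2). Sevoflurane against the desflurane control gave 1 call without a TPM limit (Tlr9) and 1 with a fold limit of 1.5 (Tlr7), in place of 0. Desflurane against the sevoflurane control gave 1 call (Tlr1) with a fold limit of 1.5 and with median-of-ratios scaling, in place of 0. Desflurane against its own control gave 0 calls under every alternative run.

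The median log2 change with sevoflurane of -0.37 became -0.58 with a pseudocount of 0.1 TPM, -0.25 with FPKM, -0.073 against the desflurane control, -0.26 against the mean of the controls and -0.53 for receptors with a mean above 1 TPM. The median with desflurane of 0.11 reversed to -0.14 against the sevoflurane control. With FPKM the calls of Sarm1, Ccl3, Ccl4, Zbp1 and Il1b among the pathway genes were lost as well. Against the desflurane control the sevoflurane calls of Irf7, Tank, Zbp1, Ccl3 and Sarm1 were lost. Those of Irf1, Cxcl1, Cxcl10, Ccl4, Cd180 and Ly86 were kept. FPKM moved the median log2 change of the 9136 genes above 2 TPM, taken here without a pseudocount. It went from 0.07 to 0.20 for sevoflurane against the desflurane control. For desflurane against the sevoflurane control it went from 0.10 to -0.15. Single receptors kept their sign against the other control in 7 of 9 cases with sevoflurane and 5 of 9 with desflurane. They kept it in 9 of 9 with assembled rows added, for both agents. With assembled rows in place of annotated ones, also added later, signs were kept in 7 of 7 and 8 of 8. In 22 pairs of receptor and library, however, the assembled row repeated the annotated span and TPM. For Tlr2, Tlr4, Tlr5 and Tlr8 that held in every library, so neither use of assembled rows could change their sign. No paired analysis was possible because each group holds 1 library. Low coverage of Tlr5 and Tlr9 limits what their ratios can show.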

Other observations

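The other receptor genes in the files stood out in 1 library. Tlr12 was at 1.80 TPM in the sevoflurane control and 0.437 in the sevoflurane 6 h liver, with 0.343 in the desflurane control and 0.397 in the desflurane 6 h liver. Tlr11 was at 0.859, 0.294, 0.262 and 0.515 TPM in that order. Both were highest in the sevoflurane control, as Tlr1, Tlr2, Tlr4, Tlr6 and Tlr7 were, and neither reached the limit of 2 TPM. Tlr10, encoded beside Tlr1 and Tlr6 on chromosome 14, was at 0.142 to 0.297 TPM.

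Transcripts assembled by StringTie at the Tlr1 locus began 10927 bases before the annotated start in the sevoflurane control, 9121 bases before it after 6 hours of sevoflurane and 10367 bases before it after 6 hours of desflurane. In the desflurane control the assembled Tlr1 transcript had the annotated start. Tlr9 had no assembled transcript after 6 hours of sevoflurane or in the desflurane control, and Tlr6 had none after 6 hours of sevoflurane. Over the 36 pairs of receptor and library, 22 had an assembled row with the annotated span, 11 had one with another span and 3 had none.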
